A study of Rattus norvegicus with 24 samples.

Results

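Serp2 and Serp1 are paralogs that encode the stress-associated endoplasmic reticulum proteins, and both were followed in the peripheral blood of 24 rats. Every non-control probe annotated to either symbol was taken. This gave 2 genes and 3 probes, 2 for Serp2 and 1 for Serp1, out of 25885 gene names and 30367 probes on the array. All 3 were among the 10708 probes bright enough to be tested. Serp2 was picked for its pattern on these same arrays, so its values are given as a description without a test. Serp1 was included as its paralog and was tested.

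Blood RNA of 24 male Sprague Dawley rats, 1 rat per array and 4 per group, was hybridized on two-color arrays against a common reference pooled from the rats of the experiment. All rats were 8 weeks old at the start and received a semi-synthetic diet for 6 weeks, either plain (G0) or with oat beta-glucan of high (G1) or low (G2) molecular weight. Rats of the LPS groups were injected with E. coli lipopolysaccharide at 10 mg/kg to provoke enteritis, and rats of the C groups received saline. The 6 groups are therefore C-G0, LPS-G0, C-G1, LPS-G1, C-G2 and LPS-G2, and each of the 3 slides of 8 arrays held all of them. The unit throughout is the log2 ratio of the rat RNA (Cy3) over the reference (Cy5). A value of -1 is a 2-fold lower signal than in the pool. Because the pool contained RNA of these groups, the ratio shows differences between rats and not how abundant a transcript was. Hbb, Hba1 and Alas2 of red cells, S100a8 and S100a9 of neutrophils, Cd3e of T cells, Cd79b of B cells and Pf4 of platelets were well above background on all 24 arrays, and the samples were mixed blood. In such a mixture fewer cells of a type and less RNA per cell cannot be told apart.

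The labels put the rat RNA in Cy3, while the study's methods put it in Cy5, and the labels were followed. Over 7074 probes bright in both channels on every array, the median within-group SD was 0.38 in Cy3 and 0.26 in Cy5, with Cy3 the more variable channel in 95.3% of them. For the Serp2 probes the SD of the log2 signal over the 24 arrays was 1.09 and 1.69 in Cy3 against 0.21 and 0.23 in Cy5. Read with the dyes exchanged, every sign given here would turn. The titles of LPS-G0 replicates 3 and 4 name LPS whereas another label field calls them controls, and they were kept in LPS-G0. Between 7786 (C-G0 replicate 3) and 15385 (C-G0 replicate 4) probes were well above background per array.

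Serp1, also known as RAMP4, and Serp2 are very small tail-anchored proteins of the endoplasmic reticulum membrane that bind the Sec61 translocon, the channel through which secreted and membrane proteins enter the endoplasmic reticulum. Serp1 is known as a protein induced by endoplasmic reticulum stress and has been linked to the stabilization and glycosylation of newly made membrane proteins. Despite the similar symbol, neither belongs to the serpins, the serine protease inhibitors. Secretory cells such as plasma cells, a minor population in blood, rely heavily on this machinery.

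The 2 Serp2 probes measured distant stretches of the same transcript. The brighter probe (A_44_P684315, median Cy3 signal 317) starts at base 894 of the transcript, at chr15:57532211-57532270 on the minus strand of the rat assembly rn4. The dimmer probe (A_64_P144016, median Cy3 signal 142) starts at base 290, at chr15:57549499-57549556 on the same strand, in the coding sequence for the membrane end of the protein. The outer ends of both probes lie 17.3 kb apart on the genome. The sequence of the dimmer probe is shown because the widest differences in the gene were read through it.
Serp2, dimmer probe: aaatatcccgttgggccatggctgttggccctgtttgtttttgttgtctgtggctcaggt
The single Serp1 probe (A_44_P193990, median Cy3 signal 192, 2 spots) starts at base 1577 of its transcript, at chr2:147866862-147866921 on the minus strand. The probes of the paralogs are not alike. The longest run of bases that the Serp1 probe shares with a Serp2 probe is 6 of 60, and no Serp2 probe shares more than 14 bases in a row with a probe of any other gene. The signals of the paralogs therefore came from different sequences, and no level is compared between them.

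Serp2 varied widely across these rats. Its brighter probe ranged over 15.8-fold between the measured values of the lowest and highest array, against 6.56-fold for Serp1, and the lowest array of each was not above background. The dimmer probe ranged over 58.2-fold, but 7 of 24 arrays were not above background on it, among them the lowest, C-G0 replicate 4 with a Cy3 signal of 9.72. Ordered by the SD over the 24 arrays, the dimmer Serp2 probe stood 3rd and the brighter 36th of 10708 tested probes. Nothing is read from these ranks, because Serp2 was picked for its pattern on these arrays. The dimmer probe was also tested only because it was above background on every array of LPS-G0 and LPS-G2, where it was highest. The variation was almost entirely shared by the 2 probes, with Pearson's r of 0.95 (Spearman's rho 0.96) across the 24 arrays and 0.91 for deviations from the group means. Correlations across arrays are descriptions here, with no p, since all arrays share the reference.

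In C-G0, the rats without LPS or beta-glucan, the brighter Serp2 probe gave log2 ratios of 0.21, -0.64, -1.13 and -1.94 in replicates 1 to 4. In LPS-G0 it gave 0.95, 0.29, 1.32 and 1.17. All 4 LPS-G0 arrays lay above the pool and above every C-G0 array. On the dimmer probe C-G0 read -0.19, -0.73, -0.85 and -4.48, and LPS-G0 read 1.04, -0.08, 1.39 and 1.26. These groups did not overlap either, although LPS-G0 replicate 2 came close to C-G0 replicate 1. Serp2 was thus 3.49-fold higher in LPS-G0 than in C-G0 with the brighter probe (log2 difference 1.81) and 5.51-fold higher with the dimmer probe (2.46). On the dimmer probe C-G0 replicates 3 and 4 were not above background, so its fold rests on only 2 C-G0 arrays that measured it. Groups that did not overlap with LPS-G0 higher occurred in 3.68% of all tested probes, and nothing is read from the count because this contrast helped to choose the gene. C-G0 replicate 4 weighed heavily on the dimmer probe, whose difference was 1.49 without it, and the brighter probe then gave 1.45.

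LPS-G1, the LPS rats fed high-molecular-weight beta-glucan, held the lowest Serp2 of all groups. The brighter probe read -2.07, -0.58, -2.66 and -2.22 in replicates 1 to 4, and the dimmer probe -3.80, -0.42, -3.43 and -3.37. Replicate 2 stood apart on both probes and resembled rats of the other groups. The other 3 arrays were not above background on the dimmer probe, so only 1 of 4 LPS-G1 arrays measured it and these low values are near the floor of the array. Relative to LPS-G0, Serp2 was 7.04-fold lower with the brighter probe (log2 difference -2.82) and 12.6-fold lower with the dimmer (-3.65). No LPS-G1 array reached any LPS-G0 array, which was also true in this direction of 14.1% of all tested probes. Without LPS-G1 replicate 2 the dimmer probe gave -4.43 and the brighter -3.25.

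LPS-G2, the LPS rats fed low-molecular-weight beta-glucan, lay between these extremes. The brighter probe read -0.37, -0.29, 0.47 and 0.68 and the dimmer probe -0.35, -0.04, 0.89 and 0.63. The log2 difference from LPS-G0 was -0.81 and -0.62, and the groups overlapped on both probes.

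The beta-glucan diets without LPS left Serp2 scattered. In C-G1 the brighter probe read -0.30, -1.35, -0.58 and 0.61 and the dimmer 0.04, -2.72, -0.54 and 0.92. In C-G2 the brighter probe read -1.50, -0.56, 0.30 and -0.68 and the dimmer -3.04, -1.16, 0.01 and -0.72. Both groups overlapped with C-G0, by differences of 0.47 and 0.99 for C-G1 and of 0.26 and 0.33 for C-G2 with the brighter and dimmer probe. Setting each LPS group against the C group of the same diet gave -1.48 and -2.18 for LPS-G1 vs. C-G1 and 0.74 and 1.51 for LPS-G2 vs. C-G2, again with overlap on both probes. LPS-injected rats therefore had higher mean Serp2 than their controls on the plain and G2 diets and lower mean Serp2 on the G1 diet. The difference between diets in the LPS response was not tested for Serp2.

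**Figure D1:**
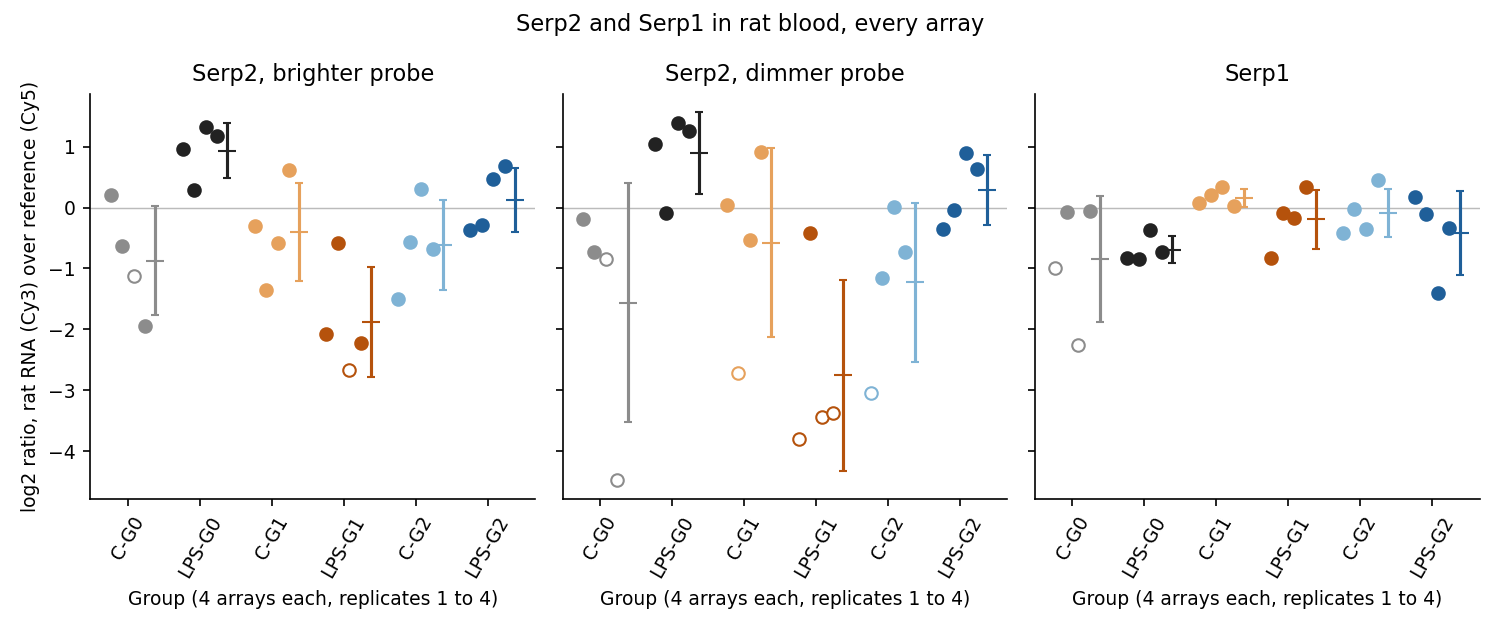
The log2 ratio of rat RNA (Cy3) over reference (Cy5) for both Serp2 probes and for Serp1, with 1 point per array, replicates 1 to 4 from left to right in each group, open points for arrays not above background in Cy3, and the group mean ± SD (n = 4) beside them. Serp2 sits highest in LPS-G0 and lowest in LPS-G1 on both probes, and Serp1 shows a narrower spread in which C-G0 replicate 3 is the lowest array at -2.26.

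Ordered by group mean, the brighter probe ran from LPS-G0 (0.93 ± 0.45) through LPS-G2 (0.12 ± 0.53), C-G1 (-0.40 ± 0.81), C-G2 (-0.61 ± 0.74) and C-G0 (-0.87 ± 0.90) to LPS-G1 (-1.88 ± 0.90; SD, n = 4 each). The dimmer probe gave the same order, from 0.90 ± 0.67 in LPS-G0 through 0.28 ± 0.58, -0.58 ± 1.55, -1.23 ± 1.30 and -1.56 ± 1.97 to -2.76 ± 1.57 in LPS-G1 (SD, n = 4 each). Every group overlapped with its neighbours in this order on both probes.

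The same 6 arrays were the lowest on both Serp2 probes, namely C-G0 replicate 4, C-G1 replicate 2, C-G2 replicate 1 and LPS-G1 replicates 1, 3 and 4. Each group without LPS thus had 1 of them, LPS-G1 had 3, and LPS-G0 and LPS-G2 had 0. On the dimmer probe all 6 were at -2.72 or below and not above background, and a gap of 1.56 separated them from the next array at -1.16. On the brighter probe the gap was only 0.22, between -1.35 and -1.13, and 5 of the 6 still read above background. Each slide held 2 of the 6. They had between 9769 probes above background (C-G2 replicate 1, the second-lowest number of all arrays) and 15385 (C-G0 replicate 4, the highest), and over the 24 arrays that number had an r of 0.03 and -0.07 with the brighter and dimmer Serp2 probe. Within slides 1, 2 and 3, LPS-G0 minus C-G0 on the dimmer probe was 0.94, 2.24 and 5.73, and all were positive on the brighter probe too. LPS-G1 minus LPS-G0 was -4.28, -3.31 and -4.62 on the dimmer and -2.69, -2.94 and -3.38 on the brighter probe. Each slide held 1 or 2 arrays of a group, so these within-slide values have no error of their own.

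**Figure D2:**
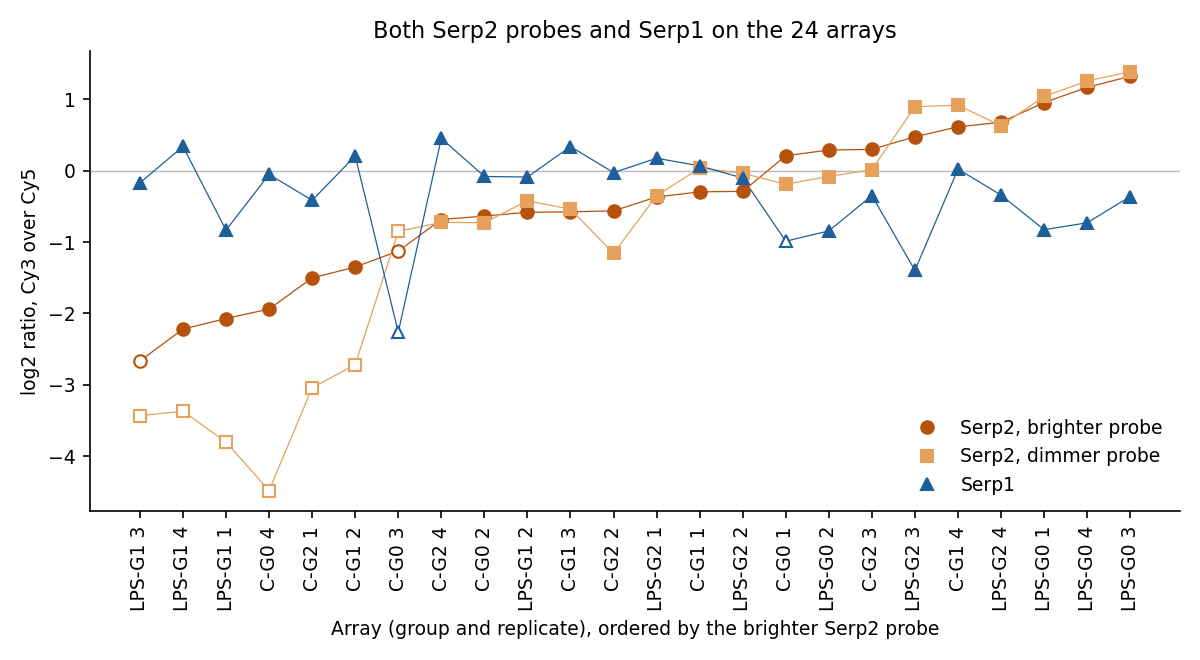
The log2 ratio (Cy3 over Cy5) of both Serp2 probes and of Serp1 on each of the 24 arrays, which are ordered by the brighter Serp2 probe, with open symbols where a probe was not above background. The dimmer Serp2 probe drops to between -4.48 and -2.72 on the 6 leftmost arrays, while Serp1 on the same arrays lies between -0.83 and 0.34.

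Serp1 did not share this pattern. Its r with the brighter Serp2 probe was -0.21 (rho -0.32) and with the dimmer probe -0.21 (rho -0.26). In C-G0 it read -0.99, -0.08, -2.26 and -0.05 in replicates 1 to 4, and in LPS-G0 -0.83, -0.84, -0.36 and -0.73. C-G0 replicates 1 and 3 were not above background. The low value of C-G0 replicate 3, the array with the fewest bright probes, was the mean of 2 spots at -3.14 and -1.38. LPS-G0 was tight (-0.69 ± 0.22) and C-G0 wide (-0.85 ± 1.04; SD, n = 4 each), and the log2 difference of 0.15 (SE 0.38) was far within that spread (limma, adjusted p = 0.889; exact permutation test, p = 0.914). Without C-G0 replicate 3 the difference turned to -0.32.

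Among the LPS rats, Serp1 read -0.83, -0.09, -0.17 and 0.34 in LPS-G1 and 0.17, -0.10, -1.40 and -0.34 in LPS-G2. Relative to LPS-G0 it differed by 0.50 in LPS-G1 (adjusted p = 0.396; exact permutation p = 0.114) and by 0.27 in LPS-G2 (adjusted p = 0.861; exact permutation p = 0.486). Both diet groups overlapped with LPS-G0. In LPS-G1, where Serp2 was lowest, the mean of Serp1 was therefore above that of LPS-G0 and not below it, by an amount within the error.

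The widest Serp1 difference was between diets without LPS. C-G1 read 0.07, 0.21, 0.34 and 0.02 (0.16 ± 0.14; SD, n = 4), and every C-G1 array was above every C-G0 array. The difference of 1.00 (SE 0.38, 2.01-fold) had an unadjusted p of 0.0141 and an exact permutation p of 0.0286, the smallest that 4 arrays against 4 can give, but it failed the correction over all probes (limma, adjusted p = 0.136). Such separation with C-G1 higher was found for 3.07% of all tested probes. C-G0 replicates 1 and 3, at -0.99 and -2.26, were not above background. Replicates 2 and 4, the C-G0 arrays that measured Serp1, read -0.08 and -0.05 against 0.02 to 0.34 in C-G1. The fold therefore rests largely on C-G0 values near the floor. The call turned on a single array: without C-G0 replicate 4 the difference was 1.27 with a limma adjusted p of 0.0469, whereas without C-G0 replicate 3 it fell to 0.53. In C-G2 Serp1 read -0.42, -0.03, -0.35 and 0.45, which was 0.76 above C-G0 with overlap (adjusted p = 0.389; exact permutation p = 0.229).

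Against the C group of the same diet, Serp1 differed by -0.35 in LPS-G1 (adjusted p = 0.950; exact permutation p = 0.229) and by -0.33 in LPS-G2 (adjusted p = 1.00; exact permutation p = 0.514). The LPS difference on the G1 diet minus that on the plain diet was -0.50 (SE 0.53, adjusted p = 0.999), and for the G2 diet it was -0.49 (SE 0.53, adjusted p = 0.868). No diet dependence of the LPS response of Serp1 was detectable with 4 arrays per group. All p-values for Serp1 are two-sided. The limma p sets a difference against the spread between rats within groups, pooled over the 6 groups, and the permutation p against the 70 arrangements of 8 arrays.

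Taking the difference between the paralogs on each array, Serp2 (brighter probe) minus Serp1 averaged 1.62 ± 0.34 in LPS-G0 and -1.70 ± 1.01 in LPS-G1, with C-G0 at -0.03 ± 1.48, C-G1 at -0.56 ± 0.91, C-G2 at -0.53 ± 0.83 and LPS-G2 at 0.54 ± 1.11 (SD, n = 4 each). The LPS-G0 arrays lay between 1.13 and 1.90 and the LPS-G1 arrays between -2.56 and -0.49. These ranges are far apart, and the difference carries no test because Serp2 is part of it.

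The partners of these proteins were examined through lists of genes of the translocon, of the oligosaccharyltransferase that adds sugar chains to entering proteins, of the unfolded protein response, of the machinery that inserts tail-anchored proteins, and of the serpins. The translocon list, whose members are called translocon genes here, holds the Sec61 channel and its partners. Among these partners are the signal recognition particle and the signal peptidase. Serp1 moved with this list across the rats. The mean log2 ratio of 21 measured translocon genes had an r of 0.81 with Serp1 (rho 0.85), 0.84 without the 2 arrays farthest from the Serp1 median (C-G0 replicate 3 and LPS-G2 replicate 3), and 0.78 for deviations from the group means. The value was 0.84, 0.89 and 0.89 within slides 1, 2 and 3. Of the 21 genes, 16 had a positive r with Serp1, some of them weak, while the median r of all tested probes was 0.05. Above 0.65, a value exceeded by 5% of all tested probes, were 7 of the 21. The highest were Sec11a, a signal peptidase subunit (r 0.86), Srp14 of the signal recognition particle (0.78), Spcs1, another signal peptidase subunit (0.78), and Ssr1 of the translocon-associated complex (0.74). Sec62, which assists post-translational translocation, ran against it (-0.65). Of the Sec61 genes themselves, Sec61b had an r of 0.49 and Sec61g of -0.20, while Sec61a1 and Sec61a2 were too dim to be tested.

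The oligosaccharyltransferase list followed Serp1 with an r of 0.73 (rho 0.70), led by Ddost at 0.74 and Ostc at 0.70, while Dad1 (-0.33) and Ost4 (-0.24) did not. Without the 2 farthest arrays it was 0.63. The tail-anchor insertion list had 0.56, which fell to 0.30 without the 2 farthest arrays. The unfolded protein response list had 0.37, with 0.59, 0.07 and 0.75 within slides 1, 2 and 3, and the serpin list had -0.27 (-0.52 without the 2 farthest arrays). Serp2 showed nothing of the kind. Its r with the translocon list was -0.18 and with the oligosaccharyltransferase list -0.06, and 0 of the 21 translocon genes exceeded 0.49, the value above which 5% of tested probes lay for Serp2. With the unfolded protein response, tail-anchor and serpin lists it had 0.13, 0.02 and 0.22. The genes of a list were read on the same arrays as Serp1, and the number of bright probes per array had an r of 0.47 with Serp1. Its part in these relations was not tested.

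**Figure D3:**
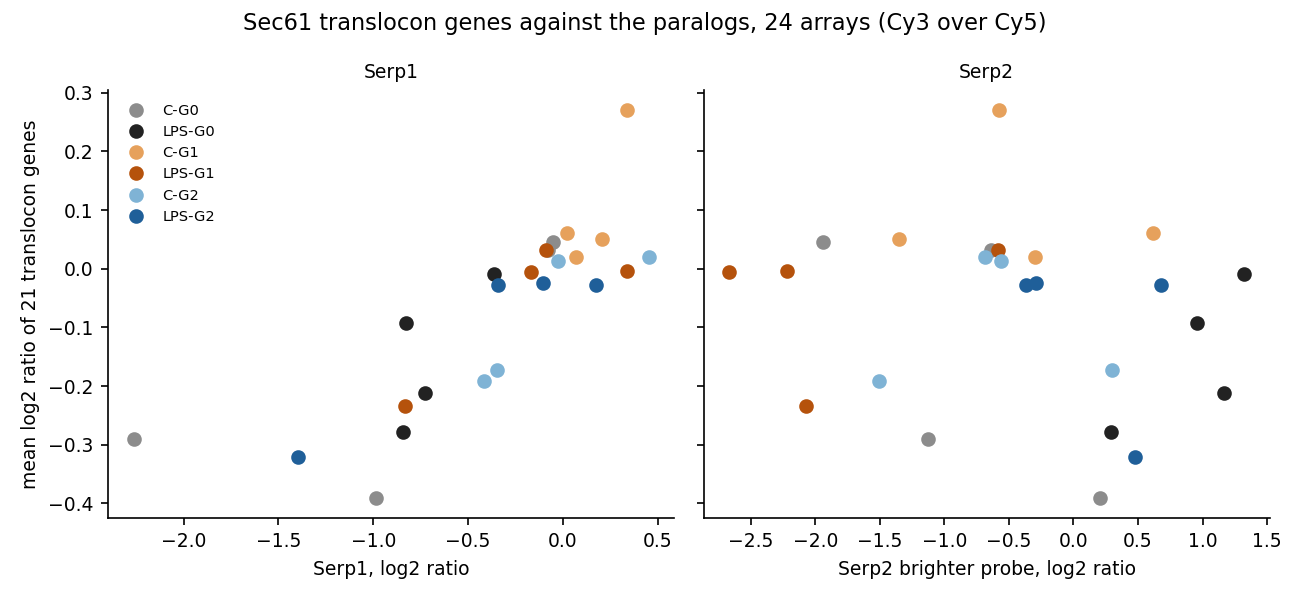
The mean log2 ratio (Cy3 over Cy5) of 21 genes of the Sec61 translocon and its partners on each of the 24 arrays. It is set against Serp1 on the left and the brighter Serp2 probe on the right, with groups in color. The translocon mean rises with Serp1 (r 0.81) and shows no such trend with Serp2 (r -0.18).

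No gene of the 5 lists passed an adjusted p of 0.05 in any of the 7 comparisons by limma, and few probes of the whole array did. The share of tested probes called was 0% in LPS-G0 vs. C-G0, 0.028% in LPS-G1 vs. LPS-G0, 0% in LPS-G2 vs. LPS-G0, 0.028% in C-G1 vs. C-G0, 0.028% in C-G2 vs. C-G0, 0.00934% in LPS-G1 vs. C-G1 and 0% in LPS-G2 vs. C-G2. Leaving out single arrays changed this, with 7 listed genes called in C-G1 vs. C-G0 without C-G0 replicate 4 and 3 in LPS-G1 vs. LPS-G0 without C-G1 replicate 2. In the same fits 963 and 775 of all 10708 tested probes were called. With all 24 arrays, at an unadjusted p under 0.05, the shares of tested probes were 11.3%, 23.7%, 5.29%, 27.9%, 13.3%, 2.81% and 1.09%, in the same order. Of the listed genes, 21 of 25 translocon, 7 of 12 oligosaccharyltransferase, 23 of 31 unfolded protein response, 13 of 16 tail-anchor and 8 of 24 serpin genes were bright enough to be tested.

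The translocon list stood highest where Serp1 did. In C-G1 vs. C-G0 its median log2 difference was 0.33 against 0.02 over all tested probes. Its mean log2 ratio was -0.39 and -0.29 in C-G0 replicates 1 and 3, the arrays where Serp1 was not above background. In C-G0 replicates 2 and 4 it was 0.03 and 0.05, against 0.02 to 0.27 on the C-G1 arrays. At an unadjusted p under 0.05, 8 of 21 genes were higher and 1 lower. Of all tested probes, 27.9% passed that limit in this comparison, in either direction, which also applies to the counts below. Srp54, the subunit that recognizes signal peptides, differed by 0.64 (SE 0.24, adjusted p = 0.134), Srp9 by 0.62 (SE 0.21, adjusted p = 0.122) and Ssr1 by 0.58 (SE 0.23, adjusted p = 0.139) in the limma fit, while Srp72 differed by -0.50 (adjusted p = 0.152). These 4 were picked after their values were seen. The oligosaccharyltransferase list had a median of 0.41 with 4 of 7 higher, the unfolded protein response list 0.26 with 5 of 23 higher and 3 lower, and the tail-anchor list 0.25 with 2 of 13 higher, by the same unadjusted p. None of these genes passed the correction. The mean log2 ratio of the oligosaccharyltransferase list was -0.62 and -0.44 in C-G0 replicates 1 and 3. It was -0.06 and 0.01 in C-G0 replicates 2 and 4, against -0.10 to 0.13 on the C-G1 arrays. The red cell list moved the other way in this comparison, with a median of -0.94 over 10 genes. At an unadjusted p under 0.05, 6 of them were lower. The mean log2 ratio of the list lay between -1.47 and -0.22 on the C-G1 arrays against -0.12 to 0.25 in C-G0. Hbb, Hba1 and Alas2 of this list differed by only 0.08, -0.13 and -0.18. Over the 24 arrays the red cell list had an r of -0.52 (rho -0.73) with Serp1. The cell division list had a median of -0.96 over 6 genes in C-G1 vs. C-G0. NK markers differed in the direction of Serp1, with a median of 0.62 and 3 of 6 higher at an unadjusted p under 0.05, and their mean level lay between -1.69 (replicate 1) and -0.02 in C-G0 and between -0.72 and 0.55 in C-G1. The part of these lists in the Serp1 difference was not tested.

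In LPS-G0 vs. C-G0, where Serp2 was high, the median difference was -0.02 for the translocon list and 0.10 for the unfolded protein response list, against 0.02 over all tested probes. The largest rises and falls in the lists were small beside the Serp2 difference. They were 0.35 for Ssr2 and -0.66 for Sec11c in the translocon, 0.54 for Ddost and -0.11 for Rpn1 in the oligosaccharyltransferase, and 0.31 for Manf, a secreted stress factor, and -0.35 for Derl1, a protein of endoplasmic reticulum degradation. In the tail-anchor list they were 0.59 for Get3, the targeting ATPase, and -0.32 for Emc8, and in the serpins 0.53 for Serpinh1, the collagen chaperone, and -0.55 for Serpina5. Their limma adjusted p lay between 0.432 (Serpinh1) and 0.827 (Rpn1).

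In LPS-G1 vs. LPS-G0, where Serp2 was low, the translocon median was 0.14 and the unfolded protein response median 0.08, against 0.07 over all tested probes. At an unadjusted p under 0.05, 5 of 23 unfolded protein response genes were lower and 1 higher, and 0 of 21 translocon genes differed. Of all tested probes, 23.7% passed that limit in this comparison, in either direction. The extremes were 0.45 for Ssr1 and -0.32 for Srp72, 0.54 for Krtcap2 and -0.40 for Dad1, 0.49 for Derl1 and -0.88 for Ppp1r15a, the phosphatase subunit that reverses the translation block of the stress response. They were 0.55 for Get4 and -0.50 for Ubl4a in the tail-anchor list. The serpin list had a median of -0.39, with 3 of 8 genes lower at an unadjusted p under 0.05, among them Serpina3n, an acute-phase serpin (-0.88), while Serpinb6 differed by 0.59. The limma adjusted p of these genes lay between 0.105 (Serpina3n) and 0.523 (Serpinb6).

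Over the 24 arrays the r of the mean log2 ratio of blood cell markers with the brighter Serp2 probe ran from -0.32 for monocytes and -0.29 for T cells to 0.31 for platelets and 0.37 for the cell division list. For deviations from the group means, it was -0.62 for NK cells, -0.52 for monocytes, -0.24 for T cells and 0.50 for platelets. For the cell division list it was then only 0.06. The NK list also differed in LPS-G0 vs. C-G0, with a median of 0.91 and 6 of 6 genes higher at an unadjusted p under 0.05, and its mean level lay between -1.69 and -0.02 in C-G0 and between -0.05 and 0.63 in LPS-G0. In LPS-G1 vs. LPS-G0, 6 of 6 cell division genes had a negative difference (median -0.57, lowest -2.50), 3 of them at an unadjusted p under 0.05, and their mean level lay between -1.20 and -0.06 in LPS-G1 against 0.32 to 0.80 in LPS-G0. The red cell list had a median of -0.32 there with 3 of 10 genes lower at an unadjusted p under 0.05. Its mean level lay between -0.62 and -0.05 in LPS-G1 against 0.10 to 0.25 in LPS-G0. Hbb, Hba1 and Alas2 of this list differed by 0.16, 0.07 and 0.02. At the same unadjusted p, 11.3% of all tested probes passed in LPS-G0 vs. C-G0 and 23.7% in LPS-G1 vs. LPS-G0, in either direction. The part of these cell lists in the Serp2 differences was not tested.

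The genes most like Serp2 were found by r with the brighter probe over the 24 arrays, among all tested probes with a symbol. Of all tested probes, 1% had an r below -0.53 and 1% an r above 0.57. Highest were Vav3, a guanine nucleotide exchange factor (0.76), Rab6b, a Golgi trafficking GTPase (0.73), Tsc22d1, a leucine-zipper transcription regulator (0.72), Chpf, a chondroitin polymerizing factor (0.69), and Ccdc167 (0.68). The amino acid transporter Slc7a1 (0.68), Lrrc46 (0.66), the galectin Lgals2 (0.66), Lrrc51 (0.65) and the carbonic anhydrase relative Car11 (0.65) followed. Lowest were Atg13, a subunit of the complex that starts autophagy (-0.75), Tpt1, the translationally controlled tumor protein (-0.74), Dnajc14, a co-chaperone of the endoplasmic reticulum (-0.69), and Rbm48, an RNA-binding splicing factor (-0.67). No gene of the translocon or unfolded protein response lists was among these. Vav3 and Dnajc14 each had 1 other tested probe, which lay outside these extremes.

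These likenesses were of different kinds. For Vav3 and Chpf they lay mostly between the groups, since the r of deviations from the group means was 0.31 and 0.33. For Tsc22d1 it stayed at 0.60 and for Tpt1 at -0.74, so these followed Serp2 from rat to rat inside the groups. Without the 2 arrays farthest from the Serp2 median (LPS-G1 replicate 3 and LPS-G0 replicate 3), Tsc22d1 had 0.75 and Tpt1 -0.73. With the dimmer Serp2 probe they had 0.72 and -0.74.

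Tsc22d1 is the neighbor of Serp2 on chromosome 15. Its probe at chr15:57502525-57502584 lies 29.6 kb from the nearer Serp2 probe on the plus strand, so the genes face each other with their 3′ ends. Tsc22d1 averaged 0.14 ± 0.45 in LPS-G0, 0.16 ± 0.44 in LPS-G2, 0.00 ± 0.47 in C-G1, -0.33 ± 0.29 in C-G2, -0.40 ± 0.45 in C-G0 and -0.50 ± 0.26 in LPS-G1 (SD, n = 4 each). LPS-G1 was thus again the lowest group, with a narrower range than Serp2. A second Tsc22d1 probe, 31.9 kb away, had an r of 0.40 with Serp2 and of 0.52 with the first. The 9 tested probes within 1000 kb of Serp2, a window chosen after its values were seen, had r between -0.37 (Slc25a30) and 0.72 (Tsc22d1), with 0.22 for Nufip1, so likeness was not general in the region.

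Tpt1 also lies on chromosome 15, 778 kb away, and its 3 probes gave different answers. The probe at chr15:56753837-56754289, whose placement spans more of the genome than its 60 bases, had an r of 0.62 with Serp2. Its r was 0.13 for deviations from the group means. The probe at chr15:56755084-56755143 had 0.29, and -0.14 for such deviations. The remaining probe, assigned to Tpt1 but placed at chr16:12912596-12912655 by the array design, had the -0.74 given above. The first and the last of these overlap by 29 bases and the overlap is shown because the r of these probes with Serp2 had opposite signs. The capitals mark the bases that differ, C12T and C21G, counted from 1 at the 5′ end of the overlap, with the base of the chromosome 15 probe first.
Tpt1, overlap in the chromosome 15 probe: cagttttttatCggtgaaaaCatgaatcc
Tpt1, overlap in the chromosome 16 probe: cagttttttatTggtgaaaaGatgaatcc
The r between these probes was -0.12, and between both chromosome 15 probes 0.68. The gene assignment of the chromosome 16 probe is uncertain, since its position and its bases differ from those of the chromosome 15 probe, and it was not checked against a genome. It averaged 0.37 ± 0.43 in LPS-G1 and 0.24 ± 0.27 in C-G0, against -0.18 ± 0.28 in LPS-G0 and -0.40 ± 0.64 in LPS-G2 (SD, n = 4 each), and its lowest arrays, LPS-G2 at -1.01 and C-G1 at -1.01, were among those with high Serp2.

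**Figure D4:**
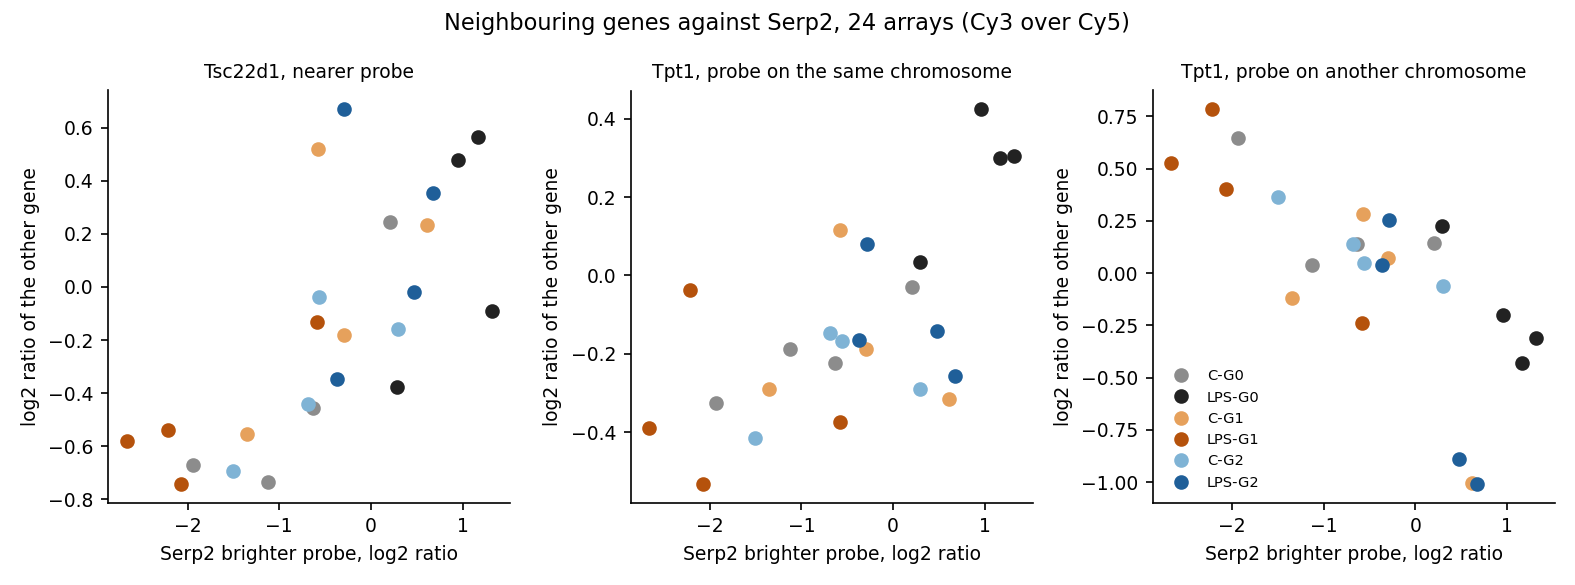
The log2 ratio (Cy3 over Cy5) of Tsc22d1 and of 2 Tpt1 probes against the brighter Serp2 probe, 1 point per array and groups in color. Tsc22d1 rises with Serp2 (r 0.72), the Tpt1 probe on the same chromosome rises mainly through 3 LPS-G0 arrays (r 0.62), and the Tpt1 probe placed on another chromosome falls (r -0.74).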

How the data were processed

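Per the file headers, the authors made the deposited intensities with Agilent Feature Extraction 10.10.1.1, while the submitters' processing notes name version 10.7.3.1. Background subtraction and a Lowess dye correction were done per array by that software. The deposited log10 values give Cy5 relative to Cy3 per spot, and all 1511424 such values in the series-wide file equal those of the array files within 1e-09. Their sign was turned and they were converted to log2. Of 62976 spots, 58717 were not controls. Outlier spots (679 to 1133 per array) were left out and spots of a probe averaged. A probe was tested if, in at least 1 group, a share of 0.5 or more of its spots was well above background in Cy3 on each of the 4 arrays. Coordinates come from the array design and refer to rn4.

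Group means over 24 arrays were modelled in R 4.3.3 with limma 3.58.1 (and version 1.17.8 of data.table), two-sided, with Benjamini-Hochberg adjustment over 10708 probes and a threshold of 0.05. Serp1 was also tested by exact permutation over the 70 arrangements of 8 arrays. The model was tested on simulated data. Sequences were compared and figures drawn with python 3.11.15, pandas 2.3.3 and matplotlib 3.10.9. For a listed gene with several probes, the brightest in Cy3 was used. Named were all probes of both genes, the 10 genes with the highest and 5 with the lowest r with Serp2, and in each of the 5 pathway lists the genes called or, failing these, the largest rise and fall after LPS on the plain diet and under the G1 diet after LPS. Of the genes this selects, 1 is not reported here. The members and lists were chosen with earlier results of these data known. The number of arrays limits the precision. Alternatives were models on 16 arrays, slide and replicate number as blocks, normexp with an offset of 50 and loess, Cy3 alone, other filters on dim probes, array weights, a variance trend, median centering, Tukey's test as in the methods, and leaving out arrays.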

Additional observations from a re-analysis of the deposited data

Results flagged for a closer look

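In groups of 4 arrays, 2 Serp2 values stood far from the other 3, both on the dimmer probe. C-G0 replicate 4 read -4.48 against -0.85 for its nearest neighbor, a gap of 0.846 of the range of the group. LPS-G1 replicate 2 read -0.42 against -3.37, a gap of 0.872 of the range. Both gaps passed the 95% limit of Dixon's test, which served here only to flag values. Chance passes that limit in about 1 in 20 groups, and 18 groups were examined over the 3 probes. C-G0 replicate 4 and LPS-G1 replicates 1, 3 and 4 were not above background on this probe. Both gaps thus depend on values near the floor, and nothing more is read from them.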

How the results depend on the processing

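The Serp2 difference LPS-G1 vs. LPS-G0 kept its direction under all alternatives run. It shrank most with normexp and loess, to -1.85 for the brighter and -1.68 for the dimmer probe. LPS-G0 vs. C-G0 stayed positive, from 1.26 to 2.17 for the brighter and from 1.22 to 2.92 for the dimmer probe. Without LPS-G0 replicates 3 and 4, whose labels conflict, it was 1.49 and 2.04. Serp1 was called once, in C-G1 vs. C-G0. There, leaving out single arrays gave differences from 0.53 to 1.27 and limma adjusted p from 0.0469 to 0.474. With normexp and loess this Serp1 difference shrank from 1.00 to 0.36 (limma, adjusted p = 0.198).

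Counts of called genes in the 5 lists depended on the fit. In LPS-G1 vs. LPS-G0, with 0 called, it was 4 on the 16 arrays of the LPS groups and C-G0, 1 with normexp and loess, 13 with array weights, and 0 to 3 when single arrays were left out (3 without C-G1 replicate 2). In LPS-G0 vs. C-G0 array weights gave 2, and in C-G1 vs. C-G0 leaving out single arrays gave 0 to 7 (7 without C-G0 replicate 4). Over all probes, LPS-G1 vs. LPS-G0 had 3 calls, but 921 on 16 arrays, 274 with normexp and loess, 2955 with array weights and 775 without C-G1 replicate 2. LPS-G0 vs. C-G0 had 0, but 917 with array weights, and C-G1 vs. C-G0 had 3, but 963 without C-G0 replicate 4. The causes were not tested.

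Replicate numbers were not taken as pairs in the main fit. Arrays of the same number in different groups had a mean r of 0.11 and a lowest of -0.31 over 60 pairs. Arrays of different number and group had a mean of -0.04 and a lowest of -0.62 over 180 pairs. The same number thus went with slightly more likeness. All arrays of replicate 1 were on slide 1 and all of replicate 4 on slide 3, so number and slide cannot be told apart there. With the replicate block, 3 listed genes were called between LPS-G1 and LPS-G0 and 3 between C-G1 and C-G0, and over all probes 1008 and 600. Serp1 in C-G1 vs. C-G0 then had a limma adjusted p of 0.0714, and no Serp1 call changed.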
